A study of Mus musculus with 9 samples.

Results

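Antisense transcripts of the mouse hippocampus were followed across 3 groups of mice. An antisense transcript is an RNA, usually not coding for protein, that is read from the DNA strand opposite to another gene, here called the partner. The members were the genes whose annotated biotype is antisense and whose mean level over the 9 libraries was at least 1 FPKM (read pairs scaled by the gene's exon length and by a library size), leaving out a short list of imprinted transcripts. The rule found 197 members among 2826 antisense genes listed, of 54532 genes in all. It left 2627 antisense genes below the level and 2 that were removed by name. Because the mean included every group, the values in all 3 groups chose the members, and a transcript that was high in 1 group could enter through that group alone.

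Each group had 3 hippocampus samples from C57BL/6 wild-type mice, purchased at 6 to 8 weeks of age. Con mice ate a standard diet and HMD mice were given a diet rich in methionine, each for 8 weeks. Bet+HMD mice spent 8 weeks on the methionine-rich diet and then 2 weeks with 2.5% (w/v) betaine in the water, and the sources used here do not say whether the methionine diet went on in that time. The Bet+HMD mice were therefore sampled later than the others, they had their own deposited table with the other groups repeated in it, and the time, any sequencing batch and betaine cannot be told apart. The strain labels of the Bet+HMD samples read C57BL/6, C57BL/7 and C57BL/8. The labels call the mice male and the methods of the study call them female. Xist was at most 0.0449 FPKM and 4 Y-linked genes summed to 25.6 to 36.9 FPKM in every library. No source ties a sample to a separate animal beyond its name, so the p-values measure the spread between these samples only.

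Antisense transcription is common at mammalian genes. Some antisense RNAs start next to the promoter of the partner and run the other way, some run tail to tail with it, and some lie wholly within it, often inside an intron. Examples are known that silence the partner, that recruit chromatin-modifying proteins or that affect its splicing, while the act of transcription rather than the RNA matters at other loci, and most have no assigned role. In the brain, well-known cases accompany homeobox genes, among them Dlx6os1, also called Evf2, which is made with the interneuron genes Dlx5 and Dlx6.

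Between 16031464 and 18291952 reads were assigned to genes per library. Markers of hippocampal neurons summed to 145 to 195 FPKM in every library, and none of them was at 0. Choroid plexus markers ran from 768 to 3193 FPKM across libraries and thalamic markers from 12.6 to 74.0 FPKM, the latter 12.6 to 17.6 FPKM in Con, 25 to 74.0 FPKM in HMD and 21.6 to 21.9 FPKM in Bet+HMD. Their part in the results was not tested. In bulk tissue, fewer cells that make a transcript and less of it per cell cannot be told apart.

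The library kit preserved strand, but the deposited counts did not use it. Of 450 genes whose exons lie wholly under exons of opposite-strand genes, 0 had a read in any library, including 86 with at least 200 exon bases and a host above 5 FPKM. Reads over exon bases shared by a pair of genes were therefore dropped, and a member's level came only from its exon bases under no other exon, a median of 89.5% of its length and between 13.0% and 100%. Those reads may have come from either strand, so that a member lying in an intron of its partner could not be told from unspliced RNA of the partner.

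The sequences below are those of 4 members that were much higher in Bet+HMD than in the other groups, from the GENCODE M21 transcripts on GRCm38. They were chosen to show what was counted: the short 2-exon transcript beside a serotonin receptor gene, and stretches of 3 members that lie inside their partners. Capitals mark the 5 bases on each side of an exon junction in Gm45533 and Gm43140, and the bases under no other exon, the only ones that could be counted, in Gm36937. The stretch of Gm12264 holds no junction and lies wholly under no other exon. Gm45533 (chr4:139075824-139076208, plus strand) is whole at 165 bases, Gm36937 is bases 130 to 429 of 429 (chr1:172323123-172323661, plus strand), Gm43140 is bases 1 to 300 of 456 (chr3:33817256-33817790, plus strand) and Gm12264 is bases 271 to 500 of 500 (chr11:59775286-59775515, minus strand).
Gm45533: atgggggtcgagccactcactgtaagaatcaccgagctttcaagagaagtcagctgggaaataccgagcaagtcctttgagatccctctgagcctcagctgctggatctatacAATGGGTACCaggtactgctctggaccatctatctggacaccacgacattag
Gm36937: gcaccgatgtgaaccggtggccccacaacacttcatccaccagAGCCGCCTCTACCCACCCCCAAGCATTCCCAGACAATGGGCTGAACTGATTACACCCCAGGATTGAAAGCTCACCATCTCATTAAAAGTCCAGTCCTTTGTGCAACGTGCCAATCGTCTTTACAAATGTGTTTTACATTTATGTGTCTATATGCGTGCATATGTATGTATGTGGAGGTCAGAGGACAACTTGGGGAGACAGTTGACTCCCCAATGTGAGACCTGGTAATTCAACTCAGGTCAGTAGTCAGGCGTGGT
Gm43140: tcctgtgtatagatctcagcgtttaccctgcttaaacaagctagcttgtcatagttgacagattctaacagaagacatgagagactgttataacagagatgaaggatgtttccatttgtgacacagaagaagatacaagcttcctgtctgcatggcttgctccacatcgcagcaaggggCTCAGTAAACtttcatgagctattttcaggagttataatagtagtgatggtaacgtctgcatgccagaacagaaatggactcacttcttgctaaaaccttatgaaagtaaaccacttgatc
Gm12264: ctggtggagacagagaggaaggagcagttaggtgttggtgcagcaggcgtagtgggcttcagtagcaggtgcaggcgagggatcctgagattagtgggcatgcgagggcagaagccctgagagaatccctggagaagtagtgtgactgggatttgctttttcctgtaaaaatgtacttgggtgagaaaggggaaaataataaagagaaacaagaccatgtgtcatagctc

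The start regions of 4 members that were lower in Bet+HMD are shown for contrast, from RefSeq on GRCm38.p6, with every CpG in capitals. Gm7467 (chr5:76304793-76304925, plus strand) begins at base 84 of the stretch of 133 bases, next to the start of Clock, and holds 18 CpG. That of 2900093K20Rik (chr2:163419529-163419820, plus strand) holds 30 CpG and that of Zbtb11os1 (chr16:55974568-55974867, minus strand) holds 17. Gm12709 (chr4:102989706-102990005, minus strand), which runs into the end of Sgip1, has 0 CpG in 300 bases.
Gm7467: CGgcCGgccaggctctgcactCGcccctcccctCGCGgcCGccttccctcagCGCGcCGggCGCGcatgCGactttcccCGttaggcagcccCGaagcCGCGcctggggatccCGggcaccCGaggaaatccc
2900093K20Rik: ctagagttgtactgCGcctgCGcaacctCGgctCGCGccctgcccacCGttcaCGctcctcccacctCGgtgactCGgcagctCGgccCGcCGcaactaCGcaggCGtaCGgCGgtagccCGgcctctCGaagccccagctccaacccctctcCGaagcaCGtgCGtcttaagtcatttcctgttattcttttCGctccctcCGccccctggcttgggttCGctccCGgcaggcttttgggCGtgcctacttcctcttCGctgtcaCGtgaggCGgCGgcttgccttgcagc
Zbtb11os1: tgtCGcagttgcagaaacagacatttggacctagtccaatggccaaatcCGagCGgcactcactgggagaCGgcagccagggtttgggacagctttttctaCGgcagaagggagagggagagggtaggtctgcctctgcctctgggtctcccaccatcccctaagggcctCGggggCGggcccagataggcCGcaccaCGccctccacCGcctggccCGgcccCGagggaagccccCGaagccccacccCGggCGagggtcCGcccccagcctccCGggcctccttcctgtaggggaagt
Gm12709: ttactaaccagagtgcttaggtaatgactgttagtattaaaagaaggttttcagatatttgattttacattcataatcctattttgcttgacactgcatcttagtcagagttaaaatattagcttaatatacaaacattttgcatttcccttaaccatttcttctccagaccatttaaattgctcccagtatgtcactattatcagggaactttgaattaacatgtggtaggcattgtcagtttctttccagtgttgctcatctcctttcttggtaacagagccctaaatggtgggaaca

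RefSeq promoter windows (250 bases before to 50 after a start) matched 82 of the 197 members, and 42 of these lay within 50 bases of the start listed in the data. The matched members held a median of 15.5 CpG, against 7 over all 32851 promoter windows. The 25 that start within 1000 bases of the partner's start held a median of 26 CpG and the 57 others 11. The letters GGGCGG, or CCGCCC on the other strand, the core of a GC box, were in 68% of the first and 31.6% of the second, against 35.7% of all promoter windows. TATAAA, or TTTATA on the other strand, was in 0% and 8.77%, against 13.6% of all. Members with a start beside the partner's thus held more CpG than the others, which is a description of letters and not of binding. Among matched members, the 36 that rose in Bet+HMD against HMD held a median of 8.5 CpG, the 6 that fell 27 and the 40 that were not called 19.5, and GGGCGG was in 30.6%, 66.7% and 50% of them. Only 1 of the 10 members with the largest rise had a matched window. By the classes of place defined below, the median was 11 CpG in 29 intronic, 11 in 27 mixed and 24 in 26 outside members. The split by call was not separated from place.

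Members overlapped the partner in different ways. Of the 197, 71 lay inside the partner, 61 reached over its start, 41 over its end and 7 covered it whole. Another 15 did not overlap but started within 5000 bases of the start of an opposite-strand gene, and 2 had no partner. The partner coded for protein in 192 cases, 130 members shared exon bases with it, and 51 started within 1000 bases of its start, 25.9% against 15.3% of the antisense genes below the level. The shares that lay inside the partner were 36.0% and 54.9%. There were 191 distinct partners. Member length was 151 to 9734 exon bases with a median of 987, and 20 members had 1 exon in every transcript.

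Most members were lowly expressed. The mean level ranged from 1.00 to 19.8 FPKM with a median of 1.85 FPKM, and the partner's mean FPKM was above the member's for 157 of 197, with a median ratio of 4.59. For 194 members the length used in FPKM was the full exon length, shared bases included. Levels of members with shared exon bases are thus understated, which also affects the ratio. The level was at least 1 FPKM for 134 members in Con, 128 in HMD and 188 in Bet+HMD, and for 105 in every group. The last members inside the rule were Gm27040 and Gm4419 at 1.01 FPKM and E530011L22Rik at 1.00 FPKM. The first outside it were Gm21844 at 0.996 FPKM, Gm15688 at 0.995 FPKM and Gm48796 at 0.990 FPKM.

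The 10 most abundant members were B230334C09Rik, Tug1, Gm37459, 4933431E20Rik, Gm13375, AC165271.1, Gm29237, Gm17201, Gm44210 and Gm16536. B230334C09Rik, which lies opposite Lrrc40, measured 16.0, 16.5 and 11.9 FPKM in Con, 15.0, 20.1 and 13.9 FPKM in HMD and 27.9, 27.6 and 29.3 FPKM in Bet+HMD. The Bet+HMD samples were all above the other 6. Tug1, a long non-coding RNA found in many cell types and here opposite the chromatin gene Morc2a, measured 14.9, 17.9 and 11.6 FPKM in Con, 16.0, 18.1 and 14.3 FPKM in HMD and 14.7, 14.6 and 14.5 FPKM in Bet+HMD, and the 3 groups overlapped. Gm37459, opposite Pex5l, whose protein steers HCN channels in dendrites, measured 10.4 to 18.5 FPKM in Con, 11.5 to 16.0 FPKM in HMD and 10.5 to 11.4 FPKM in Bet+HMD. Con overlapped both other groups, and Bet+HMD lay just below HMD without passing the test (adjusted p = 0.179). 4933431E20Rik, opposite the glutathione transferase gene Gstm5, was even across all libraries at 10.03 to 13.0 FPKM.

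The first comparison asked what the high-methionine diet did. No member passed the test between HMD and Con, at a Benjamini-Hochberg adjusted p under 0.05 in limma over 13464 genes with a mean of at least 1 FPKM. The test called 0 of 197 members, and the background share called over all tested genes was 0%. Without adjustment, 14 members had p under 0.05, 7.11% against 4.54% of all tested genes, and the groups did not overlap for 22 members, 11.2% against 9.48%. Limma-voom on the recovered reads also called 0, with 8 at an unadjusted p under 0.05. The median log2 fold change over the members was −0.03, on the log2(FPKM + 1) scale used throughout, and −0.01 over all tested genes.

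The smallest p belonged to Gm45533, whose start lies 254 bases from that of Htr6, the gene of a serotonin receptor, with no overlap between them. Its level was 4.36, 5.98 and 6.38 FPKM in Con, 0, 0 and 0.718 FPKM in HMD and 9.07, 16.8 and 12.5 FPKM in Bet+HMD. These values rest on 13, 16 and 18 reads in Con, 0, 0 and 2 in HMD and 26, 49 and 36 in Bet+HMD. All HMD samples were below all Con samples. Pooled reads, scaled by the library sizes implied by the FPKM values, were 22.7 times higher in Con than in HMD (95% exact conditional interval 5.94 to 193, counting error only). The log2 fold change was −2.44 ± 0.25 (SE) with an unadjusted p of 2.15e-05, but the adjusted p was 0.290, and over the alternative fits it ran from 0.0219, with all 3 groups in a single fit, to 0.737. Htr6 itself measured 1.88 FPKM in Con, 1.92 FPKM in HMD and 1.99 FPKM in Bet+HMD.

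Other members with small p in this comparison changed by less. St8sia3os, opposite a sialyltransferase gene, measured 1.13, 0.791 and 1.40 FPKM in Con and 2.25, 2.97 and 2.14 FPKM in HMD (log2 fold change 0.72 ± 0.16, SE; adjusted p = 0.831). The groups did not overlap. Gm15347, opposite Mcf2l, measured 0, 0.160 and 0.759 FPKM in Con and 1.20, 1.19 and 1.38 FPKM in HMD. Gm28424, 155 bases from the start of the splicing gene U2surp, measured 0.755, 0.748 and 1.11 FPKM in Con and 1.61, 1.63 and 1.39 FPKM in HMD. Lower values in HMD were seen for 4930422M22Rik, opposite Cep70, a centrosome gene, at 0.991, 0.781 and 0.987 FPKM in Con against 0.486, 0.344 and 0.125 FPKM, and for Gm19531, opposite the G protein gene Gnb5, at 1.24, 1.97 and 1.83 FPKM against 0.418, 1.18 and 0.903 FPKM. Apart from Gm45533 and St8sia3os, these had an adjusted p of 0.975.

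Genes annotated as antisense took a larger share of reads in Bet+HMD. As the counts did not use strand, reads in partner introns could not be told from unspliced partner RNA. All 2826 antisense genes, members or not, held 0.137% ± 0.00193 of assigned reads in Con, 0.139% ± 0.00867 in HMD and 0.253% ± 0.00233 (SD, n = 3 for each group) in the Bet+HMD samples. The Bet+HMD samples (0.251% to 0.256%) were all above the HMD samples (0.133% to 0.149%), 1.82 times higher on average (two-sided exact permutation p = 0.1, the smallest that 3 against 3 allows). Antisense genes with at least 1 read numbered 1142, 892 and 1249 in Con, 1138, 963 and 1040 in HMD and 1526, 1561 and 1584 in Bet+HMD. The 197 members held 0.0967% ± 0.00285, 0.0971% ± 0.00724 and 0.156% ± 0.00141 of the reads, a share that the choice of members affects. Con and HMD overlapped in each of these measures. More genes of every kind had reads in Bet+HMD, 25315 to 25663 per library against 20816 to 23272 in Con and 20960 to 22502 in HMD, and the part of this shift in the results on single members was not tested.

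**Figure D1:**
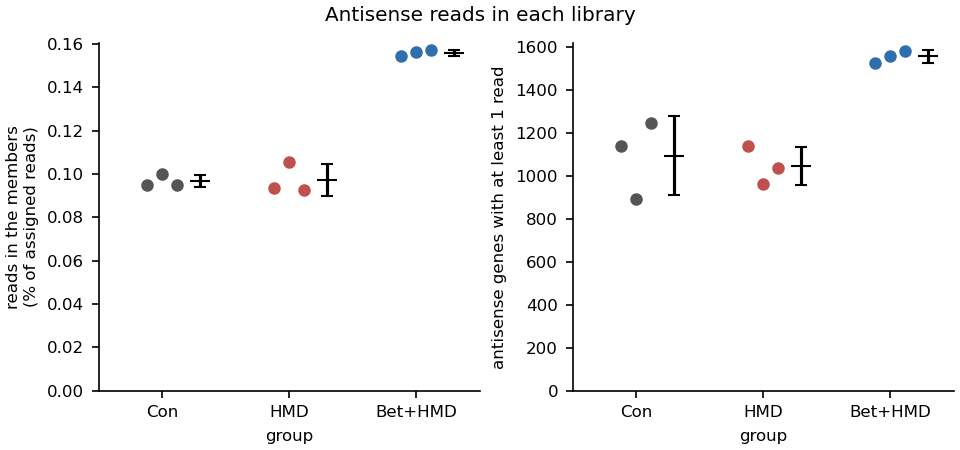
Share of assigned reads in the 197 members (left, percent) and number of antisense genes with at least 1 read (right) in each of the 9 libraries, by group; points are libraries and the bars give mean and SD. The 3 Bet+HMD libraries lie above the other 6 in both panels, at 0.154% to 0.157% and 1526 to 1584 genes.

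The second comparison asked what differed in mice given betaine. Members were mostly higher in Bet+HMD than in HMD, with a median log2 fold change of 0.63 against −0.04 over all tested genes. Limma called 117 members (59.4%), where the background share called was 47.7%. Of these, 105 rose (53.3%, background 21.8%) and 12 fell (6.09%, background 25.9%). Of the rises 70 were at least 1 on the log2 scale (background 5.48%), and of the falls 2 were at most −1 (background 2.86%). Replicates of the 2 groups were fully separated for 127 members (64.5%, background 59.8%).

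Part of this excess came with the choice of members. The 45 members under 1 FPKM in both Con and HMD entered through Bet+HMD, and 43 of them rose and 0 fell. Of the other 152, 62 rose and 12 fell (40.8% and 7.89%), with a median of 0.27, against 19.7% and 26.8% of all 13033 tested genes at 1 FPKM in Con or HMD. These 152 were not free of the choice either. Only 133 of the 197 members had a mean of at least 1 FPKM over Con and HMD in the deposited table without Bet+HMD. Choosing antisense genes on the deposited table without Bet+HMD gave 138 genes, of which 48 rose (34.8%) and 15 fell, with a median of 0.19, against 19.3% and 27.1% of all 12850 tested genes with a mean of 1 FPKM in that table. Among members with at least 10 reads in every library of both groups, 45 rose (37.2%) and 10 fell of 121, with a median of 0.21, against 20.4% and 26.8% of all 12702 genes so counted. Rises outnumbered falls in each of these sets, but by less than among the 197.

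The 10 largest rises were Gm45533, Gm12264, Gm36937, Gm29237, Gm16105, Gm15122, Gm43140, Gm16183, Gm48239 and Gm30177, each higher in all 3 Bet+HMD samples than in any of the other 6. Apart from Gm45533, all lay inside the partner with their counted bases mainly in its introns. All 10 stayed called under every alternative tried, but Gm12264, Gm16105, Gm43140 and Gm16183 were under 1 FPKM on average in Con and in HMD. They were members only through the group in which they are high, and their rise is a description. The same holds for Gm36937 and Gm15122, which were under 1 FPKM on average over the 6 Con and HMD libraries together. Gm45533 rose by 3.49 ± 0.27 (SE, adjusted p = 0.000126). Its pooled reads, scaled by the library sizes implied by the FPKM values, were 52.5 times higher than in HMD (95% exact conditional interval 14.2 to 438, counting error only).

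Gm36937 lies inside Kcnj9, a subunit of the potassium channels that G proteins open. It measured 1.03, 0 and 2.18 FPKM in Con, 0.537, 1.22 and 0.690 FPKM in HMD and 12.3, 15.6 and 12.2 FPKM in Bet+HMD, a rise of 2.99 ± 0.16 (SE, adjusted p = 3.59e-05). Kcnj9 rose too, from 12.1 to 22.8 FPKM (0.90 on the log2 scale, adjusted p = 0.00596). Gm16183 lies inside Cacna1a, which codes for the pore of P/Q-type calcium channels. It measured 0.185, 0 and 0.0490 FPKM in Con, 0.145, 0 and 0.248 FPKM in HMD and 6.03, 5.21 and 4.77 FPKM in Bet+HMD (log2 fold change 2.49 ± 0.13, SE; adjusted p = 3.59e-05), while Cacna1a rose by 0.60 (adjusted p = 0.000906). AC165271.1, opposite Kcnj6, another subunit of the Kcnj9 channel family, measured 5.21, 9.46 and 5.16 FPKM in Con, 4.80, 7.78 and 6.02 FPKM in HMD and 15.2, 13.8 and 15.8 FPKM in Bet+HMD. It rose by 1.17 ± 0.15 (SE, adjusted p = 0.000833), and Kcnj6 went from 4.66 to 5.41 FPKM without passing the test (adjusted p = 0.266).

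Several rises stood beside partners that did not pass the test. Gm29237 lies inside Sptbn1, the gene of a spectrin of the membrane skeleton, and measured 3.70, 3.17 and 1.83 FPKM in Con, 2.83, 1.17 and 1.98 FPKM in HMD and 18.2, 22.2 and 26.4 FPKM in Bet+HMD (log2 fold change 2.98 ± 0.22, SE; adjusted p = 0.000101). Sptbn1 was at 60.4 FPKM in the HMD samples and 61.4 FPKM in the Bet+HMD samples (adjusted p = 0.795). Gm48239 lies inside Cadps, which primes dense-core vesicles for release, and had 43 to 83 reads per Con library, 48 to 75 per HMD library and 590 to 644 per Bet+HMD library. Its level was 0.747 to 1.29 FPKM in Con, 0.778, 1.29 and 1.25 FPKM in HMD and 9.56, 10.2 and 10.4 FPKM in Bet+HMD (log2 fold change 2.40 ± 0.12, SE; adjusted p = 2.9e-05), the best-counted of the 10. Cadps went from 23.2 to 19.5 FPKM (adjusted p = 0.143).

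Gm12264, inside the myosin phosphatase partner gene Mprip, measured 1.22, 0.247 and 0.935 FPKM in Con, 0, 0.131 and 0.474 FPKM in HMD and 7.37, 8.03 and 10.2 FPKM in Bet+HMD, a rise of 3.00 ± 0.18 (SE, adjusted p = 4.98e-05). Gm30177, inside Nrn1, which codes for the neurite growth protein neuritin, measured 2.58, 0 and 3.13 FPKM in Con, 0.895, 0.902 and 1.64 FPKM in HMD and 8.85, 9.08 and 10.6 FPKM in Bet+HMD, a rise of 2.31 ± 0.15 (SE, adjusted p = 6.84e-05). Neither Mprip (adjusted p = 0.0970) nor Nrn1 (adjusted p = 0.66) passed.

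For 3 more of the 10 the partner rose as well. Gm16105, inside the RNA-binding gene Celf5, measured 0.159, 0 and 0.839 FPKM in Con, 0, 0.374 and 0 FPKM in HMD and 6.19, 7.62 and 6.68 FPKM in Bet+HMD (2.81 ± 0.15, SE; adjusted p = 4.12e-05), and Celf5 rose by 1.00 (adjusted p = 0.000361). Gm15122, inside Dazap1, another RNA-binding gene, measured 1.56, 0.668 and 1.14 FPKM in Con, 0.498, 0.141 and 1.03 FPKM in HMD and 9.10, 8.32 and 10.3 FPKM in Bet+HMD (2.75 ± 0.20, SE; adjusted p = 0.000104), and Dazap1 rose by 0.93 (adjusted p = 0.000309). Gm43140, inside Ccdc39, a gene of motile cilia, measured 0.485, 0.812 and 0.513 FPKM in Con, 1.01, 1.43 and 0.260 FPKM in HMD and 9.47, 11.3 and 9.70 FPKM in Bet+HMD (2.60 ± 0.23, SE; adjusted p = 0.000201). Ccdc39 went from 2.18 to 6.76 FPKM, a rise of 1.29 (adjusted p = 0.000122).

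Falls were fewer, smaller and less stable. Of the 10 largest, 4 stayed called without each library in turn and 5 by limma-voom. Gm7467 starts 84 bases from the start of Clock, a transcription factor of the circadian clock. It measured 1.44, 2.55 and 1.17 FPKM in Con, 1.24, 2.90 and 2.36 FPKM in HMD and 0.441, 0.434 and 0.264 FPKM in Bet+HMD, on 3 to 5 reads in the last, a fall of 1.16 ± 0.21 on the log2 scale (SE, adjusted p = 0.00396). Clock, at 10.4 FPKM in both HMD and Bet+HMD, did not pass (adjusted p = 0.969). 2900093K20Rik, inside the stress-response gene Oser1, measured 2.24, 0.871 and 2.68 FPKM in Con, 1.93, 2.76 and 2.61 FPKM in HMD and 0.305, 1.10 and 0.507 FPKM in Bet+HMD, and fell by 1.09 ± 0.20 (SE, adjusted p = 0.00387) while Oser1 rose by 0.39 (adjusted p = 0.021).

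Gm12709, which runs into the end of the endocytosis gene Sgip1, measured 2.40, 3.16 and 0.948 FPKM in Con, 3.55, 4.33 and 2.26 FPKM in HMD and 1.32, 1.80 and 1.47 FPKM in Bet+HMD, a fall of 0.77 ± 0.19 (SE, adjusted p = 0.0128). 2810001G20Rik starts 16 bases from the start of Cox10, needed to assemble cytochrome c oxidase, and measured 5.75, 6.89 and 9.79 FPKM in Con, 6.10, 6.91 and 6.78 FPKM in HMD and 4.36, 5.13 and 4.40 FPKM in Bet+HMD (−0.43 ± 0.09, SE; adjusted p = 0.00665). Bet+HMD lay below HMD in each case. The call on 2810001G20Rik was kept without each library but lost by limma-voom (adjusted p = 0.0867) and with all 3 groups in a single fit (adjusted p = 0.0506).

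The other 6 named falls each lost the call without at least 1 library. Gm14285 overlaps the start of Adra1d, an adrenergic receptor gene, and measured 2.76, 4.87 and 4.62 FPKM in Con, 3.79, 5.84 and 2.49 FPKM in HMD and 1.51, 1.93 and 1.66 FPKM in Bet+HMD (−0.85 ± 0.23, SE; adjusted p = 0.0192). Adra1d fell with it, by 0.90 (adjusted p = 0.00251). The call on Gm14285 was lost without HMD replicate 1 (adjusted p = 0.0519), Bet+HMD replicate 1 (0.0628) or Bet+HMD replicate 3 (0.0583). Zbtb11os1, over the start of the zinc finger gene Zbtb11, measured 3.24, 3.06 and 3.20 FPKM in Con, 3.50, 2.08 and 3.51 FPKM in HMD and 1.41, 1.84 and 1.19 FPKM in Bet+HMD (−0.69 ± 0.18, SE; adjusted p = 0.0174), and lost the call without HMD replicate 1 (0.0592), HMD replicate 3 (0.0507), Bet+HMD replicate 1 (0.0551) or Bet+HMD replicate 3 (0.0639).

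Of the 3 members named above with higher values in HMD than in Con, St8sia3os and Gm28424 overlapped Con again in Bet+HMD, and Gm15347 did not. Gm15347 measured 2.69, 2.94 and 4.18 FPKM in Bet+HMD, above all HMD samples, a rise of 0.91 ± 0.14 (SE, adjusted p = 0.00215). Its mean over the Con and HMD libraries together was under 1 FPKM, so it was a member only through Bet+HMD. St8sia3os measured 1.21, 1.15 and 1.64 FPKM in Bet+HMD (−0.56 ± 0.14 against HMD, SE; adjusted p = 0.0131; 0.0513 without Bet+HMD replicate 2). Gm28424 measured 0.916, 1.03 and 0.610 FPKM in Bet+HMD (−0.47 against HMD, adjusted p = 0.0236; 0.0545 to 0.0748 without HMD replicate 1, Bet+HMD replicate 1 or Bet+HMD replicate 3). Both comparisons share the HMD samples. Gm37768, opposite the Golgi gene Acbd3 (−0.63, adjusted p = 0.0492), and Gm20163, opposite 4931428F04Rik (−0.43, adjusted p = 0.0302), lost the call without HMD replicate 1, HMD replicate 2 or any Bet+HMD replicate, with adjusted p of 0.0751 to 0.134 and 0.0613 to 0.0977.

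**Figure D2:**
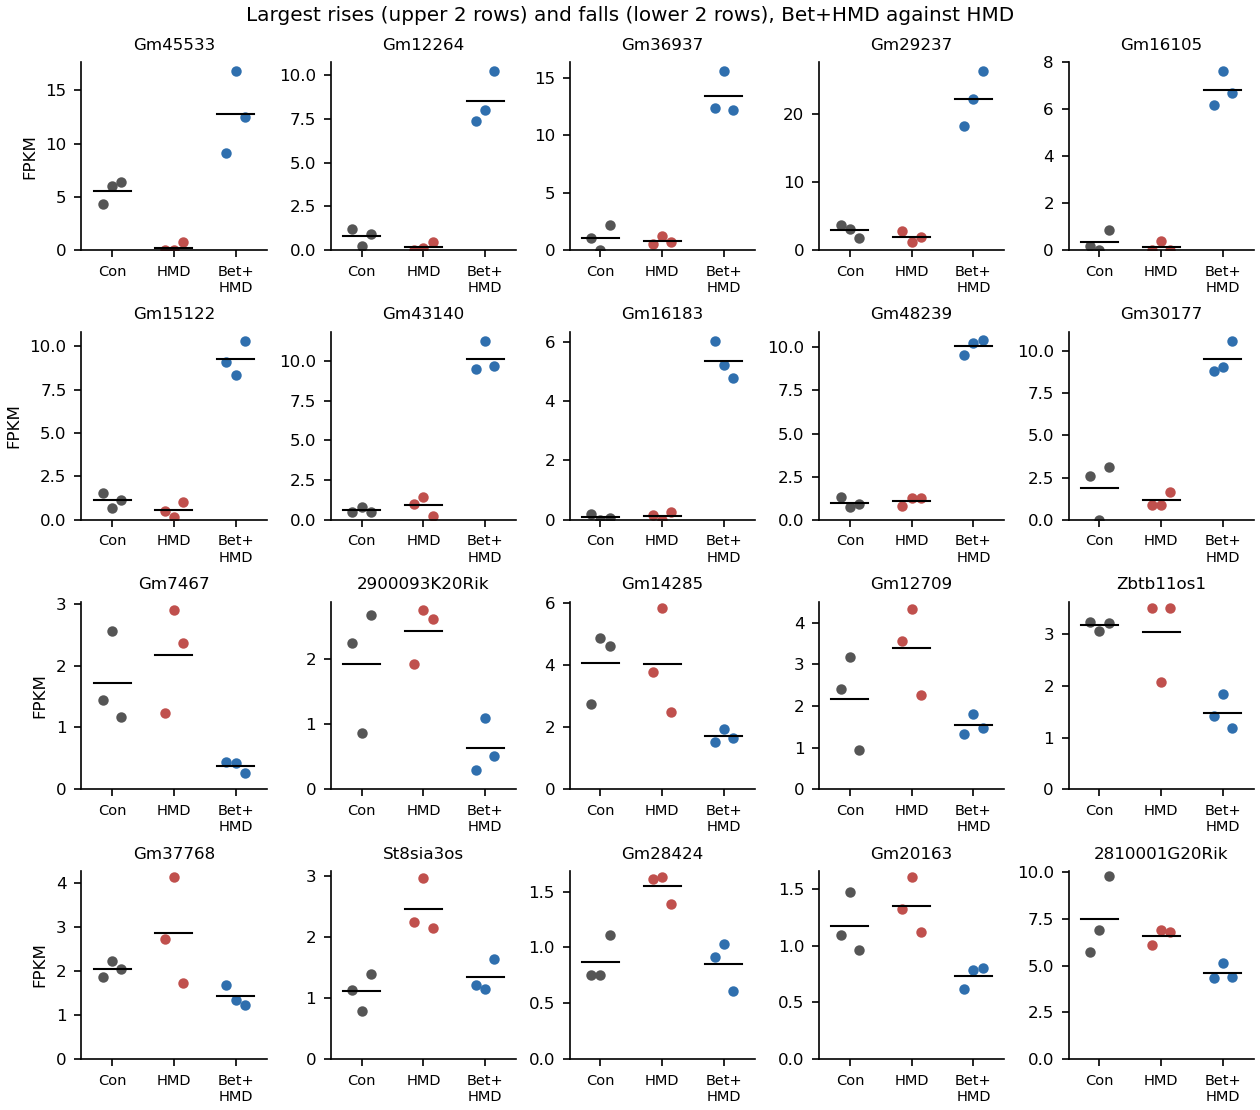
Level (FPKM) of the 10 members with the largest rise (upper 2 rows) and the 10 with the largest fall (lower 2 rows) between HMD and Bet+HMD, in Con, HMD and Bet+HMD; points are libraries, lines are means of 3, and each panel has its own axis from 0. The members were chosen for groups that do not overlap, so the gap between Bet+HMD and HMD is fixed by the choice. Gm45533 was at 0, 0 and 0.718 FPKM in HMD and at 4.36 to 6.38 FPKM in Con.

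Where a member's counted bases lay went with how it moved. All 197 members are classed here, among them the 45 that entered through Bet+HMD, so the choice of members affects the counts and medians. Members were classed as intronic where at most 10% of their counted bases lay outside the span of every other gene, outside where at least 90% did, and mixed between. Of 82 intronic members 57 rose and 3 fell from HMD to Bet+HMD (69.5% and 3.66%, where 38.4% and 16.9% of all tested genes so placed did), with a median log2 fold change of 1.15. Of 60 mixed members 29 rose and 2 fell, with a median of 0.39 (background 24.7% and 18.7%). Of 55 members outside other genes 19 rose and 7 fell, with a median of 0.12 (background 19.6% and 27.9%).

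Other non-coding genes placed the same way had medians close to the members', while their shares that rose were lower and those that fell higher in every class, a difference that was not tested. In introns, 54.2% of 546 such genes rose and 9.52% fell, with a median of 1.07. In the mixed class 39.7% of 63 rose and 11.1% fell, with a median of 0.34, and outside other genes 27.3% of 740 rose and 20.1% fell, with a median of 0.09. Among biotypes, 20 of 26 sense-intronic genes rose, with a median of 1.10, and 107 of 264 lincRNA genes, with a median of 0.39. Protein-coding genes had a median of −0.06. A positive median was thus seen for other non-coding genes as well, and whether the reads came from members or from unspliced partners was not tested, since the counts did not use strand.

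Members also differed by geometry, where 21.8% of all tested genes rose and 25.9% fell. The counts by geometry and length again include members that entered only through Bet+HMD. Of the 71 members inside the partner 51 rose and 1 fell, with a median of 1.21, whereas of the 61 over its start 21 rose and 4 fell, with a median of 0.14. The 41 over its end lay between, with 20 rises, 2 falls and a median of 0.41. The 7 that covered the partner had 5 rises, 1 fall and a median of 0.93. Of the 15 without overlap 6 rose and 4 fell. Members with 1 exon rose in 7 and fell in 5 of 20 cases. Short members moved more than long ones on the same scale, with 64 rises among the 98 below the median length and 41 among the 99 others.

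**Figure D3:**
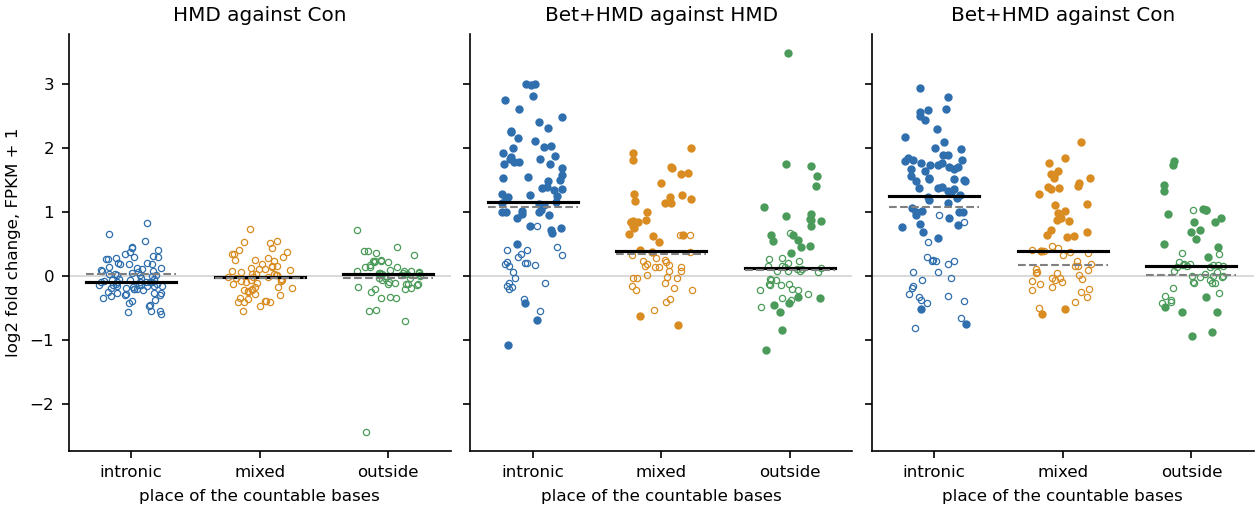
Log2 fold change of FPKM + 1 of each of the 197 members in the 3 comparisons, by the place of its counted bases (82 intronic, 60 mixed, 55 outside); filled points passed the test at an adjusted p under 0.05, solid lines are medians of members and dashed lines medians of other non-coding tested genes so placed. From HMD to Bet+HMD the members' medians fall from 1.15 in introns to 0.39 and 0.12, close to the dashed lines at 1.07, 0.34 and 0.09. The choice of members, which used Bet+HMD, affects their medians.

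Members and partners were then set side by side. Of the 105 members that rose from HMD to Bet+HMD, the partner rose for 42, fell for 14 and did not pass for 38, while 9 partners were below the level tested and 2 members had none. Of the 12 that fell, the partner rose for 4, fell for 1 and did not pass for 7. Over 175 tested partners 62 rose and 34 fell (35.4% and 19.4%, background 21.8% and 25.9%), with a median of 0.10. The difference between the log2 level of the member and that of the partner was then tested within each library over all 1379 overlapping opposite-strand pairs with both genes at 1 FPKM. It passed for 96 of 166 pairs of a member and its partner (57.8%, background 52.9%), 78 in favour of the member and 18 in favour of the partner. That share is near the background of all opposite-strand pairs. Some members entered only through Bet+HMD, so the choice of members affects the split by direction. Among the 47 pairs that share no exon bases the difference passed for 28, a count given without its own background.

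Beside Gm29237 against Sptbn1 (difference 2.96 ± 0.22, SE; adjusted p = 8.24e-05), Gm12264 against Mprip (2.85, adjusted p = 7.99e-05) and Gm48239 against Cadps (2.63 ± 0.16, SE; adjusted p = 5.88e-05), the largest shifts toward the member were those of Gm11192 and Gm15777. Gm11192, inside 2610507B11Rik, had 0 reads in every HMD library and measured 5.34, 2.25 and 4.18 FPKM in Bet+HMD, at least 3.25-fold higher than a floor of 3 reads per HMD library. Gm15777 lies opposite Coq2, which makes coenzyme Q, and measured 1.39, 0.423 and 1.33 FPKM in Con, 0.460, 4.10 and 1.49 FPKM in HMD and 8.41, 8.07 and 6.10 FPKM in Bet+HMD. It rose by 1.68 (adjusted p = 0.0126) while Coq2 fell by 0.73 (adjusted p = 0.000857).

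The largest shifts toward the partner were those of 2900093K20Rik against Oser1 (−1.48 ± 0.19, SE; adjusted p = 0.00065), C330011M18Rik against the transcription factor gene Rfx1 (−1.46 ± 0.31, SE; adjusted p = 0.0062), Gm20163 against 4931428F04Rik (−1.34 ± 0.20, SE; adjusted p = 0.00137), Gm11772 against Bahcc1 (−1.10, adjusted p = 0.00157) and Gm17201 against Ankrd52 (−0.98 ± 0.15, SE; adjusted p = 0.00154). All 5 partners rose. Rfx1 went from 2.22 to 5.67 FPKM (1.05, adjusted p = 0.000311), and Ankrd52, a subunit gene of a protein phosphatase, from 5.59 to 10.3 FPKM (0.78, adjusted p = 0.000378), while Gm17201 measured 10.3, 9.18 and 10.04 FPKM in Con, 6.79, 10.2 and 6.68 FPKM in HMD and 6.64, 5.94 and 7.22 FPKM in Bet+HMD.

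Among the abundant members too, the partner could move while the member was level. Gstm5 fell from 101 to 53.8 FPKM (−0.88, adjusted p = 0.000572) with 4933431E20Rik at 10.03 to 12.5 FPKM in HMD and 12.5 to 13.0 FPKM in Bet+HMD, and their difference shifted by 1.02 (adjusted p = 0.00204). Morc2a rose from 6.19 to 9.74 FPKM (0.58, adjusted p = 0.000807) opposite Tug1, with a shift of −0.71 (adjusted p = 0.00336). Gm13375, opposite Arhgap21, measured 10.6, 10.3 and 13.9 FPKM in HMD and 9.23, 8.41 and 9.01 FPKM in Bet+HMD (−0.34, adjusted p = 0.0467), a call lost without HMD replicate 1, HMD replicate 3 or any Bet+HMD replicate (adjusted p = 0.0548 to 0.142), and Arhgap21 rose by 0.42 (adjusted p = 0.0103). The call on Gm13375 was also lost by limma-voom (adjusted p = 0.218) and with all 3 groups in a single fit (0.160). Scaling libraries to an equal length-corrected sum (0.308) and several other alternatives lost it too. B230334C09Rik rose by 0.77 ± 0.13 (SE, adjusted p = 0.00268), while Lrrc40 went from 8.17 to 6.43 FPKM (adjusted p = 0.0535). Gm44210, opposite Efcc1, did not pass (adjusted p = 0.577).

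**Figure D4:**
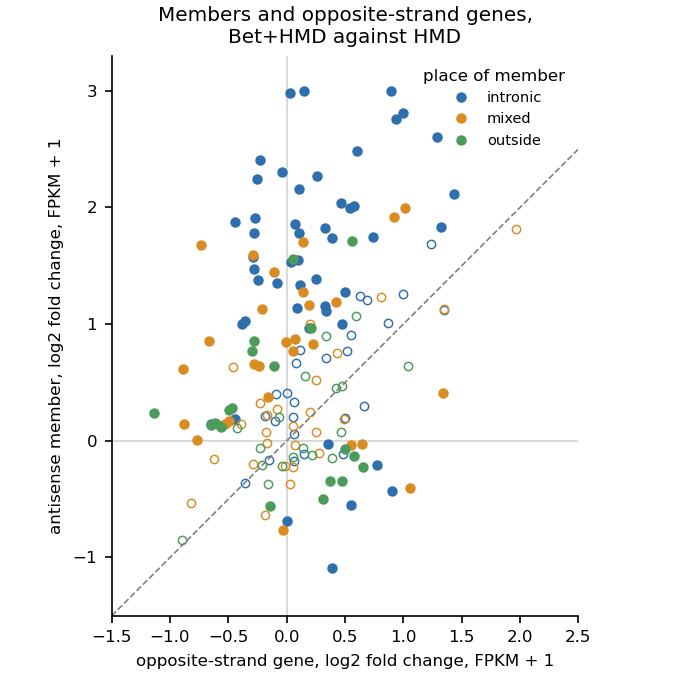
Log2 fold change of FPKM + 1 from HMD to Bet+HMD of each member (vertical) against its opposite-strand partner (horizontal), for 166 pairs with both genes at 1 FPKM, coloured by the place of the member's counted bases; filled points passed the test of the difference and the dashed line marks equal change. Of the 96 filled points 78 lie above the line, 43 of them intronic members, a split that the choice of members affects.

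Partners were also grouped by role, with groups drawn up by hand after the values had been seen, so their counts are a description. Of 5 members opposite ion channel subunits 4 rose from HMD to Bet+HMD and 0 fell, with a median of 1.47, where 53.3% of all members and 21.8% of all tested genes rose. Of the 5, Gm36937, Gm16183 and Gm16333 are intronic, a class in which 69.5% rose. Besides Gm36937, Gm16183 and AC165271.1 these included Gm16333, opposite the potassium channel subunit gene Kcnab2, at 1.74, 0 and 0.552 FPKM in Con, 0, 1.23 and 0.559 FPKM in HMD and 2.90, 2.84 and 3.97 FPKM in Bet+HMD (1.47 ± 0.28, SE; adjusted p = 0.0047). Of 7 opposite transmitter receptors 2 rose and 1 fell, fewer rises by share than among all members. Grin1os, opposite the obligatory NMDA receptor subunit gene Grin1, measured 0.535, 0.768 and 0.526 FPKM in Con, 0.617, 0.316 and 0.573 FPKM in HMD and 6.37, 5.77 and 6.50 FPKM in Bet+HMD, with Bet+HMD clear of both. Like Gm11192, Gm16333, Gm27209 and Gm10791, it was under 1 FPKM on average in Con and in HMD and was a member only through Bet+HMD. It rose by 2.27 ± 0.11 (SE, adjusted p = 3.24e-05), and Grin1 went from 28.3 to 33.8 FPKM without passing (adjusted p = 0.123). Grin1os lies inside Grin1 and is classed as intronic, so its reads could not be told from unspliced Grin1 RNA.

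Of 12 members opposite transcription factors of brain development 6 rose and 0 fell, with a median of 0.38, close to the 53.3% of all members that rose. Gm2164, opposite the POU factor gene Pou3f1, measured 0.652, 1.02 and 2.34 FPKM in Con, 0.814, 1.69 and 0.698 FPKM in HMD and 3.26, 6.00 and 6.10 FPKM in Bet+HMD (1.56 ± 0.25, SE; adjusted p = 0.00229). Gm27209, inside Pou6f1, had 2 to 12 reads per Con library, 2 to 4 per HMD library and 33 to 74 per Bet+HMD library (1.78 ± 0.22, SE; adjusted p = 0.000767). Gm13111 beside Prdm16 (0.35, adjusted p = 0.0128; 0.0597 without Bet+HMD replicate 2) and Gm11266 inside Nfib (0.66, adjusted p = 0.0396) rose by less. The call on Gm11266 was lost without HMD replicate 1, HMD replicate 2 or any Bet+HMD replicate (adjusted p = 0.0615 to 0.124). Prox1os, opposite the dentate granule cell factor gene Prox1, measured 4.01, 3.50 and 5.22 FPKM in Con, 6.12, 3.31 and 4.08 FPKM in HMD and 3.41, 2.18 and 4.09 FPKM in Bet+HMD, and the groups overlapped.

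A list of 29 textbook antisense and antisense-hosted RNAs had 26 genes in the table and 3 among the members, all beside homeobox genes. Dlx6os1 measured 2.89, 4.0 and 2.78 FPKM in Con, 2.17, 2.78 and 2.00 FPKM in HMD and 3.47, 4.15 and 3.96 FPKM in Bet+HMD, a rise of 0.56 ± 0.12 from HMD (SE, adjusted p = 0.00683), and it did not pass against Con (adjusted p = 0.237). Dlx1as measured 0.678, 0.795 and 1.54 FPKM in Con, 1.52, 1.96 and 0.835 FPKM in HMD and 4.03, 3.64 and 3.66 FPKM in Bet+HMD (1.00 ± 0.17, SE; adjusted p = 0.00321). Neither Dlx6 (adjusted p = 0.554) nor Dlx1 (adjusted p = 0.442) passed. Emx2os measured 1.83, 2.30 and 1.56 FPKM in Con, 1.44, 1.95 and 1.57 FPKM in HMD and 1.21, 1.71 and 1.70 FPKM in Bet+HMD, with full overlap.

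Because the study concerned cognition, the 3 members opposite genes of amyloid processing or Tau phosphorylation were read out as well. All 3 lie inside their partners and are classed as intronic, so their reads could not be told from unspliced partner RNA. Gm10791, opposite App, the amyloid precursor gene, measured 0.837, 0.934 and 0.708 FPKM in Con, 0.627, 0.593 and 0.574 FPKM in HMD and 3.10, 3.63 and 2.75 FPKM in Bet+HMD, and rose by 1.38 ± 0.12 (SE, adjusted p = 0.000167). App fell from 115 to 97.4 FPKM (−0.24, adjusted p = 0.0147). Gm16536, opposite the beta-secretase gene Bace1, overlapped between groups at 4.67 to 8.58 FPKM in Con, 6.77 to 8.17 FPKM in HMD and 7.05 to 7.58 FPKM in Bet+HMD, while Bace1 rose by 0.36 (adjusted p = 0.00462). 9130221H12Rik, inside the kinase gene Gsk3a, did not pass (0.21, adjusted p = 0.328).

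The third comparison set Bet+HMD against Con, and shares the Bet+HMD libraries with the second. Limma called 111 members (56.3%, background 38.9%), of which 101 rose (background 18.3%) and 10 fell (background 20.6%), with a median log2 fold change of 0.59. Of the rises 71 were at least 1 on the log2 scale (background 5.1%), and of the falls 0 were at most −1 (background 3.05%). After quantile normalization of the libraries the split was 90 rises and 22 falls, and the background under that scaling is not given. By the choice of antisense genes without Bet+HMD, 45 rose and 11 fell of 138, with a median of 0.15. Of all 12850 tested genes so chosen, 15.7% rose and 21.6% fell, with a median of −0.07. Intronic members again moved most, with 57 rises (background 35.3%) and 2 falls (background 15%) of 82 and a median of 1.25. The 60 mixed members had 27 rises (background 21%) and 2 falls (background 14.9%), and the 55 outside other genes 17 rises (background 16.1%) and 6 falls (background 22%). The counts by place include members that entered only through Bet+HMD. The difference to the partner passed for 95 of 166 pairs (background 45.5%).

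The 5 largest rises against Con were Gm36937 (2.94 ± 0.38, SE; adjusted p = 0.00173), Gm43140 (2.80, adjusted p = 0.000115), Gm16105 (2.60, adjusted p = 0.000436), Gm29237 (2.60, adjusted p = 0.000367) and Gm16183 (2.55, adjusted p = 0.000126), all named above. Of these, Gm36937, Gm43140, Gm16105 and Gm16183 were members only through Bet+HMD, so their rise is a description. Gm45533 was also higher than in Con, by 1.05 ± 0.22 (SE, adjusted p = 0.0105), so that its levels stood in the order HMD, Con, Bet+HMD with no overlap between neighbours. The 5 largest falls were Gm7467 (−0.95, adjusted p = 0.0106), Gm14285 (−0.89, adjusted p = 0.00913), Zbtb11os1 (−0.76, adjusted p = 0.0034), C330011M18Rik (−0.60, adjusted p = 0.0473) and Zfp652os (−0.57, adjusted p = 0.0419). C330011M18Rik measured 2.21, 3.27 and 1.64 FPKM in Con and 0.996, 1.53 and 1.06 FPKM in Bet+HMD, and Zfp652os, over the start of a zinc finger gene, 3.91, 4.25 and 3.70 FPKM in Con and 1.61, 3.26 and 2.35 FPKM in Bet+HMD. Of these 5 falls, 2 stayed called under every alternative and 2 by limma-voom, which lost Gm14285 too (adjusted p = 0.0740). The call on C330011M18Rik was lost without Con replicate 1, Con replicate 2 or any Bet+HMD replicate (adjusted p = 0.0624 to 0.139). That on Zfp652os was lost without any Con replicate, Bet+HMD replicate 1 or Bet+HMD replicate 3 (adjusted p = 0.0545 to 0.108).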

How the data were processed

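RNA-seq of 9 hippocampus samples (Con, HMD, Bet+HMD, 3 each) was used. The authors deposited FPKM values for each gene and library, with gene lengths in another column. The submitters' processing notes name HISAT2 2.1.0, featureCounts 1.5.0-p3 and mm10, and the study's methods give other versions of the same tools. The Con columns of the table with Bet+HMD carry another prefix and were assigned to Con by elimination. Multiplying FPKM by length gave whole reads for all values (tolerance 0.01). The library sizes so implied were not the plain totals of assigned reads. In the table with Bet+HMD they were 0.953 to 1.03 times those totals in Con and HMD and 1.04 to 1.05 times in Bet+HMD. Depth and its limits are given with the results.

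Log2(FPKM + 1) was tested in limma 3.58.1 (R 4.3.3) with an intensity trend, over genes with a mean of at least 1 FPKM and only the groups compared, with Benjamini-Hochberg adjustment over all of them. The fits were checked on simulated data. Partners were assigned by coordinates: the protein-coding overlapping opposite-strand gene with the highest level, else the nearest start within 5000 bases. The members and lists were chosen with earlier results of these data known. Named members are the 10 most abundant, the largest called changes without overlap (10 each way, 5 against Con), the 3 smallest p each way where none passed, the 5 largest shifts against the partner each way, and the textbook list. Alternatives covered pseudocount, filters, scaling, the groups fitted, limma-voom on recovered reads and each library left out.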

Additional observations from a re-analysis of the deposited data

How the results depend on the processing

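No result changed direction under any alternative run. For single members, 817 of 897 alternative values kept their call, 79 lost it and 1 gained it (Gm45533, HMD against Con, with all 3 groups in a single fit). The count of members called was within 1.5 times of the main value except as follows. HMD against Con gave 1 call with all 3 groups in a single fit. Bet+HMD against HMD gave 63 calls when antisense genes were chosen on the table without Bet+HMD, 11 of the 20 members with a mean of 5 FPKM, and, by 2 alternatives chosen after seeing the data, 26 of the 55 members outside other genes and 55 of the 121 with at least 10 reads in every library. Bet+HMD against Con gave 56, 9, 23 and 56 (of 125) by the same. Over pairs without shared exon bases the difference to the partner passed for 28 and 27. These sets hold fewer members by construction.

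Leaving out each library in turn gave 95 to 115 calls for Bet+HMD against HMD, 86 to 113 for Bet+HMD against Con and 0 to 0 for HMD against Con, and 80 to 98, 67 to 94 and 0 to 0 for the difference to the partner. Scaling to an equal length-corrected sum in each library (TPM) moved the median of all genes by 0.145 (Bet+HMD against HMD) and 0.156 (against Con) and gave 113 rises with 7 falls and 105 with 3. Adding the replicate number as a block, calls were 0, 115 and 104, and 0, 92 and 82 for the difference to the partner. The share of all genes called under each setting is not given in this section, so these counts compare only with the main fit. Deviations of same-numbered samples correlated at −0.0546 to 0.315 for HMD and Con and at −0.185 to 0.0055 for pairs with Bet+HMD, so the numbers were not taken to pair samples. Depth limits the weakest members most, since 3 reads are at most 1.87e-05% of a library and 142 to 160 members had at least 10 reads per Con library.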
